A study of Mus musculus with 6 samples.

Results

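The let-7 guide strands and miR-98-5p are 9 mature miRNAs that start from nearly the same bases and are read as 1 family. They were taken by name from the table of mature miRNAs as let-7a, let-7b, let-7c, let-7d, let-7e, let-7f, let-7g and let-7i, each as its 5p strand, with miR-98-5p. All 9 were present, out of 1522 rows, and all 9 were among the 649 rows that reached at least 1 RPM (tags of a miRNA scaled to the tags of its whole library) in 3 or more libraries. Small RNA had been sequenced from neural stem cells (NSCs) of the hippocampus, isolated from male C57BL/6J mice at postnatal day 3. In the group called GDE (library titles IUGR) the pregnant dams had been given dexamethasone, a glucocorticoid drug that crosses the placenta, into the peritoneum once a day at 1 mg/kg, over embryonic days E14.5 to E18.5. In the group called Ctrl (library titles Normal) the dams had received saline on the same days. Each group had 3 libraries, from litters that the design text calls independent, and whether a library pools several pups is not given in the sources used here.

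let-7 guides are loaded into Argonaute proteins and repress mRNAs that pair with their seed, bases 2 to 8 from the 5′ end. They are known as timers of development: they are low in early embryonic cells, where the RNA-binding proteins LIN28A and LIN28B block the maturation of their precursors, and they accumulate as cells differentiate. In neural stem cells, let-7 members are known to repress Hmga2, cyclin D1 and the nuclear receptor Tlx, which favour self-renewal and proliferation.

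The sequences are shown first because members differ by so few bases that the assignment of reads between them rests on single positions. They are the RefSeq mature sequences (GRCm38.p6), where all 9 members were matched, printed 5′ to 3′ with the seed in capitals, and let-7k, which shares the seed but is no member, is added for a result given further on.
mmu-let-7a-5p: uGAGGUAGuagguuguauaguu
mmu-let-7b-5p: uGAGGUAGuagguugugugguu
mmu-let-7c-5p: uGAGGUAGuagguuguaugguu
mmu-let-7d-5p: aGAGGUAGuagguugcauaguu
mmu-let-7e-5p: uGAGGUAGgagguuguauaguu
mmu-let-7f-5p: uGAGGUAGuagauuguauaguu
mmu-let-7g-5p: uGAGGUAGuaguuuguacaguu
mmu-let-7i-5p: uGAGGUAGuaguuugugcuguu
mmu-miR-98-5p: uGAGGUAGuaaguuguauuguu
mmu-let-7k: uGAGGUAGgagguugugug

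All 9 members had 22 bases, and all 9 carried the seed GAGGUAG. Of the 1679 mature miRNAs that RefSeq lists here, 11 had this seed, or 0.655%. The 2 outside the family were let-7k, which had a row in the deposited table, and miR-1961, which is not analysed here. Members varied at 8 positions, namely 1, 9, 11, 12, 16, 17, 18 and 19, and of the 36 pairs of members 4 differed by a single base. With positions counted from 1 at the 5′ end and the base of let-7a written first, let-7c differed from let-7a by A19G, let-7e by U9G and let-7f by G12A, and let-7b differed from let-7a by A17G and A19G and so from let-7c by 1 base. The other members were further from let-7a: let-7d by U1A and U16C, let-7g by G12U and U18C, miR-98 by G11A and A19U, and let-7i by G12U, A17G, U18C and A19U. How the authors assigned reads that match more than 1 member is not given in the sources used here, so the split between near-identical members is uncertain.

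The 9 members come from 12 precursors (hairpins from RefSeq, host genes from GENCODE M21, both on GRCm38), because let-7a, let-7c and let-7f each have 2. Mirlet7a-1 (chr13:48538179-48538272, minus strand), Mirlet7f-1 (chr13:48537829-48537917) and Mirlet7d (chr13:48536012-48536114) follow each other within an exon of the long noncoding RNA 6720427I07Rik. Mirlet7c-2 (chr15:85706603-85706697, plus strand) and Mirlet7b (chr15:85707319-85707403) lie 621 bases apart in an exon of the noncoding Lncppara. Mirlet7f-2 (chrX:151912346-151912428, plus strand) and Mir98 (chrX:151913214-151913321) lie 785 bases apart in an intron of Huwe1, which encodes a ubiquitin ligase. A further 3 precursors neighbour genes of the miR-99/100 and miR-125 families. Mirlet7a-2 (chr9:41536716-41536811, plus strand) lies in an intron of the noncoding 3110039I08Rik, 5211 bases from Mir100. Mirlet7c-1 (chr16:77599657-77599750, plus strand) lies in an intron of Mir99ahg, 656 bases from Mir99a, and Mirlet7e (chr17:17830352-17830444, plus strand) in an intron of Spaca6, 367 bases from Mir125a. Mirlet7g (chr9:106178840-106178927, plus strand), in an intron of Wdr82, and Mirlet7i (chr10:122985640-122985724, minus strand), over an exon of D630033A02Rik, had no other miRNA precursor within 10 kb on their strand. A mature let-7a, let-7c or let-7f read cannot tell its 2 precursors apart, so levels belong to the mature strand and not to a locus.

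The libraries rested on 11751000 to 12385000 tags each, recovered from the step between low RPM values, and the rows of the table held 24.1% to 27.8% of them. The table's RPM were lowest in GDE replicate 3 (241370) and highest in Ctrl replicate 1 (277888). Tags are not taken as independent molecules, since whether copies made by PCR were collapsed was not established here. miR-9-5p, miR-9-3p and miR-92b-3p, which are enriched in neural progenitors, were present in every library at a summed 18014 to 19884 RPM. All 3 had a log2 difference (GDE minus Ctrl) below 0 on the deposited scale, but all 3 lay above 0 in edgeR. Markers of other cells were also present: the 4 of microglia and leukocytes summed to 315.4 to 477.5 RPM in GDE and 106.7 to 256.4 RPM in Ctrl, and all 4 had a log2 difference above 0. The 3 of red cells summed to 73.8 to 93.5 RPM in GDE and 35.0 to 69.0 RPM in Ctrl, the 2 of endothelial cells to 265.0 to 464.7 and 231.8 to 345.1 RPM, and the 2 of choroid plexus to 387.7 to 982.8 and 155.9 to 520.1 RPM. For red cells, endothelial cells and choroid plexus the 2 tested markers of each list had a log2 difference above 0, in edgeR too. The 3 of the oligodendrocyte lineage, all with a log2 difference above 0, summed to 209.5 to 264.5 RPM in GDE and 159.7 to 235.0 RPM in Ctrl, and the 5 of neurons, 3 above and 2 below 0 (4 and 1 in edgeR), to 1123 to 1248 and 1083 to 1429 RPM. None of these lists had a marker at 0 in all libraries, and none of the markers passed the test given below. In alternatives to that test 2 of the microglia and leukocyte markers passed: miR-150-5p in DESeq2 (log2 difference 1.31, adjusted p = 0.0424) and miR-223-3p in limma without Ctrl replicate 2 (2.07, adjusted p = 0.0499). A bulk library cannot tell apart fewer cells of a type and less RNA per cell, and the part of these cells in the values below was not tested.

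let-7 guides were among the most abundant miRNAs of these cells. Together the 9 members held 22.5% to 23.5% of the RPM of the table. Their sum was 59219, 58947 and 55615 RPM in the GDE libraries and 62443, 58238 and 61015 RPM in the Ctrl libraries (replicates 1, 2 and 3 in each). It came to 57927 ± 2007 RPM in GDE and 60565 ± 2139 RPM in Ctrl (mean ± SD, n = 3), a ratio of 0.956, and the groups overlapped. GDE replicate 3 was the lowest and Ctrl replicate 1 the highest library, the same libraries that were lowest and highest in the RPM of the whole table. As a share of the table the family held 22.9% ± 0.193 in GDE and 23.0% ± 0.493 in Ctrl, again with overlapping groups, a ratio of 0.997. No test was made on the sum, since it is a score over members chosen with earlier results known.

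The members formed 2 tiers. 7 of them had means between 6647 and 8992 RPM and held 90.0% to 93.5% of the family in each library, while miR-98 and let-7e, at 2708 and 2349 RPM, held the other 6.54% to 9.98%. The step between the tiers was 2.45-fold in the means (let-7g over miR-98) and at least 2.15-fold in any single library.

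let-7c, made from Mirlet7c-1 and Mirlet7c-2, was the highest member in all 6 libraries and the second miRNA of the whole table by mean. It stood at 9041, 9056 and 8732 RPM in GDE and 9055, 8796 and 9270 RPM in Ctrl. let-7b, its neighbour in sequence and on chromosome 15, stood at 8370, 8308 and 8165 RPM in GDE and 8360, 8207 and 8653 RPM in Ctrl. Both members overlapped between the groups, with their lowest value in GDE replicate 3 and their highest in Ctrl replicate 3. let-7a, whose sequence is the reference for the differences above, followed at 8004, 7862 and 7619 RPM in GDE and 8236, 7893 and 8190 RPM in Ctrl. let-7f, made from the chromosome 13 cluster and from the Huwe1 intron, stood at 7529, 7631 and 7412 RPM in GDE and 7920, 7465 and 7810 RPM in Ctrl. let-7i had 7435, 7615 and 7327 RPM in GDE and 7984, 7340 and 7634 RPM in Ctrl. For let-7a, let-7f and let-7i the groups overlapped, and each was lowest in GDE replicate 3 and highest in Ctrl replicate 1.

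let-7d, the member with U1A, was at 7165, 6837 and 6131 RPM in GDE and 7696, 7087 and 7419 RPM in Ctrl. Of its GDE libraries only replicate 1 reached the Ctrl range. let-7g was at 6699, 6687 and 6590 RPM in GDE and 6960, 6332 and 6615 RPM in Ctrl, with the GDE libraries inside the Ctrl range. miR-98, which shares the Huwe1 intron with Mirlet7f-2, was at 2470, 2673 and 2407 RPM in GDE and 3235, 2617 and 2847 RPM in Ctrl. Only GDE replicate 2 of miR-98 lay within the Ctrl range. let-7e was at 2506, 2278 and 1233 RPM in GDE and 2998, 2502 and 2575 RPM in Ctrl, so the groups met at GDE replicate 1 and Ctrl replicate 2 and GDE replicate 3 stood far below all other libraries. Over the 9 members, 8 had their lowest value in GDE replicate 3 (let-7g in Ctrl replicate 2), and 7 had their highest in Ctrl replicate 1 (let-7b and let-7c in Ctrl replicate 3).

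**Figure D1:**
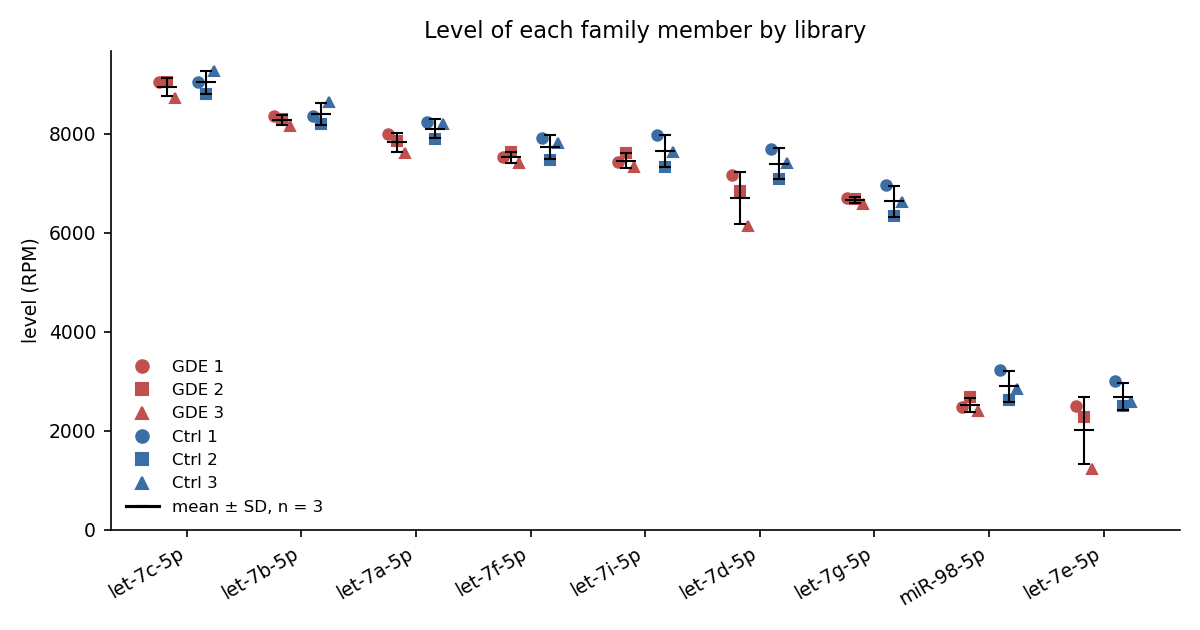
Level of each member in RPM (vertical axis, from 0) in the 3 GDE (red) and 3 Ctrl (blue) libraries, with marker shape giving the replicate and black bars the mean ± SD of 3. 7 members sit between about 6131 and 9270 RPM and miR-98 and let-7e between 1233 and 3235 RPM, and GDE and Ctrl overlap for every member.

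The order of the members was the same in most libraries. let-7c lay above let-7b, let-7b above let-7a, let-7a above let-7f, let-7i above let-7d and let-7g above miR-98 in 6 of 6 libraries. Of the 8 pairs of neighbours in the order of means, 3 did not hold their order in every library: let-7f over let-7i, let-7d over let-7g and miR-98 over let-7e each held in 5. For these 3 pairs the mean difference within a library (72.0, 409.0 and 359.7 RPM) was smaller than its SD over the 6 libraries (84.6, 491.1 and 424.9 RPM). The differences within these 3 pairs thus lay within their spread between libraries, and no test of the mean differences was made. let-7f stood 2.45 to 3.08 times above miR-98, although Mirlet7f-2 and Mir98 share an intron; let-7f has a second precursor on chromosome 13.

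How the family was divided between members does not depend on a factor common to all rows of a library, because a share is taken within a library. Whether tag counts levelled off for the highest rows was not tested, and such levelling would change the shares. let-7c held 15.4% ± 0.227 of the family in GDE and 14.9% ± 0.377 in Ctrl. Its shares of 15.3%, 15.4% and 15.7% in GDE all lay above those of 14.501%, 15.1% and 15.2% in Ctrl. For let-7g the shares were 11.3%, 11.3% and 11.8% in GDE and 11.1%, 10.9% and 10.8% in Ctrl, again all higher in GDE, with means of 11.5% ± 0.301 and 11.0% ± 0.167. let-7d went the other way, with shares of 12.1%, 11.6% and 11.0% in GDE below the 12.3%, 12.2% and 12.2% in Ctrl, and means of 11.6% ± 0.538 and 12.2% ± 0.0932. The differences were 0.51 percentage points for let-7c, 0.548 for let-7g and -0.644 for let-7d.

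Thus 3 of the 9 members had shares that did not overlap between the groups, 2 higher and 1 lower in GDE. Over the 640 tested miRNAs outside the family, taken relative to the same family sum, the groups did not overlap for 13.6%, with 7.34% higher and 6.25% lower. Each of the 3 had p = 0.1 in the exact two-sided permutation test, the smallest value that 3 against 3 libraries allow, so no share could pass a threshold of 0.05. The p of the other 6 members ran from 0.2 to 0.5 in the same exact test (9 shares were tested, with no adjustment over the members). Shares add up to 100%, so a low share of 1 member raises the others in that library, and these 9 tests are not independent. The largest difference was that of let-7e, which held 4.23%, 3.86% and 2.22% of the family in GDE and 4.80%, 4.30% and 4.22% in Ctrl. Its difference of -1.002 percentage points was -0.391 without GDE replicate 3. Without that library the difference was 0.382 points for let-7c, 0.374 for let-7g and -0.369 for let-7d, and without Ctrl replicate 1 that of let-7c was 0.294. miR-98 held 4.34% ± 0.182 in GDE and 4.78% ± 0.358 in Ctrl, and the shares of let-7b, let-7a, let-7f and let-7i differed between the groups by 0.416, 0.129, 0.228 and 0.249 points, with overlap in each. Without Ctrl replicate 1 these differences were 0.166, 0.0297, 0.186 and 0.325 points and that of miR-98 fell in size from -0.435 to -0.235, and without GDE replicate 3 the 4 were 0.227, 0.0384, 0.0624 and 0.103 points.

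**Figure D2:**
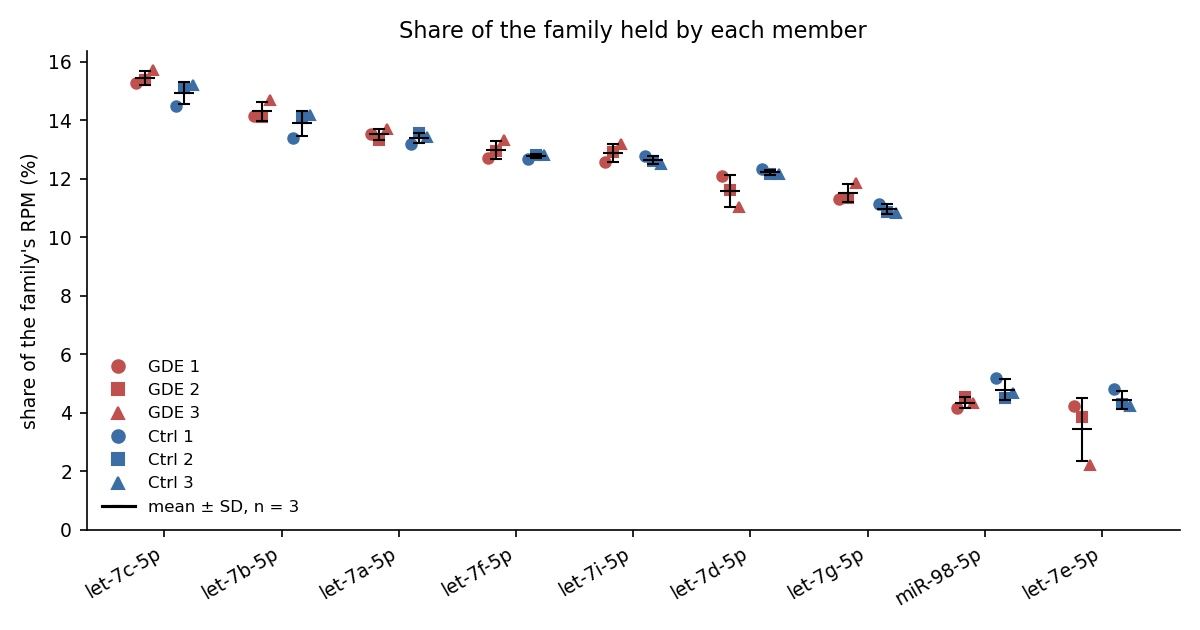
Share of the family's RPM held by each member in percent (vertical axis, from 0), with the 3 GDE libraries in red, the 3 Ctrl libraries in blue, marker shape for the replicate and black bars for the mean ± SD of 3. let-7c and let-7g have all GDE points above all Ctrl points, let-7d has them below, and let-7e of GDE replicate 3 stands apart at 2.22%.

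Whether maternal dexamethasone went with a different level of let-7 guides was tested with limma, a linear model fitted over all 649 rows on log2(RPM + 1), with Benjamini-Hochberg adjustment over all of them. 0 of the 9 members passed at an adjusted p under 0.05, where 0.308% of all tested rows (2 rows) did. None of the 9 had an unadjusted p under 0.05 either, against 8.63% of all rows, and on the recovered tags 0 members were called by edgeR (0.308% of all rows), DESeq2 (0.77%) or limma-voom (0.154%). That absence of unadjusted p under 0.05 did not hold in every alternative limma fit. There was 1 such member with no filter, 1 with a block on the replicate number, 1 without Ctrl replicate 2 and 2 without GDE replicate 1. The share of all rows under 0.05 in these alternative fits is not given here, so nothing is read from these counts. No member had RPM that did not overlap between the groups, against 14.6% of all rows. The log2 difference (GDE minus Ctrl) was below 0 for 8 members and above 0 for let-7g, with a median of -0.04 over the members and -0.07 over all tested rows. On the deposited scale the family's median thus lay close to that of the table, but this depended on the scaling. The 2 medians were 0.061 and -0.002 in edgeR, 0.055 and -0.006 in DESeq2, and -0.017 and -0.017 after quantile normalization.

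On the deposited scale the widest differences were those of let-7e, miR-98 and let-7d, while in edgeR that of let-7g (0.11) was wider than that of miR-98 (-0.10), and let-7d (-0.04) had the smallest. let-7e averaged 2006 ± 679 RPM in GDE against 2692 ± 267 RPM in Ctrl (n = 3 each), a log2 difference of -0.49 (SE 0.25, 95% interval -1.06 to 0.09; limma, adjusted p = 0.57). For miR-98 the means were 2517 ± 139 and 2900 ± 313 RPM, with a log2 difference of -0.20 (SE 0.10, 95% interval -0.43 to 0.03; limma, adjusted p = 0.57). let-7d had means of 6711 ± 528 and 7401 ± 305 RPM and a log2 difference of -0.14 (SE 0.07, 95% interval -0.31 to 0.02; limma, adjusted p = 0.57). The exact two-sided permutation p was 0.2 for each of them. Over the 16 alternative settings the adjusted p ran from 0.45 to 0.819 for let-7e, from 0.547 to 0.963 for miR-98 and from 0.45 to 0.977 for let-7d. These 3 members had a log2 difference below 0 in the reported fit and in all 16 alternatives, a direction shared by 61.2% of all rows in the reported fit. Among the alternatives, the other filters and the replicate block could not change this difference. Their size depended on the scaling: let-7e was at -0.33 in edgeR, miR-98 at -0.10 in edgeR and -0.07 after quantile normalization, and let-7d at -0.04 in edgeR and in limma-voom. Without GDE replicate 3 the log2 difference of let-7e was -0.17 and that of let-7d -0.08, and that of miR-98 was -0.17 without GDE replicate 3 and -0.12 without Ctrl replicate 1.

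The 6 other members had log2 differences between -0.05 (let-7a) and 0.01 (let-7g), with SE of 0.05 to 0.06. The 95% interval of let-7c ran from -0.13 to 0.10, a change of -8.54% to 7.01% in GDE, and that of let-7g from -0.13 to 0.14, or -8.51% to 10.2%. The interval of let-7a, from -0.17 to 0.07, ran from -11.0% to 4.83%. Their direction followed the scaling: with the table rescaled to the same total in every library, and in edgeR, DESeq2 and limma-voom, all 6 had a log2 difference above 0. In edgeR the values were 0.08 for let-7c, 0.08 for let-7b, 0.05 for let-7a, 0.06 for let-7f, 0.06 for let-7i and 0.11 for let-7g. No direction is therefore given for these members.

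**Figure D3:**
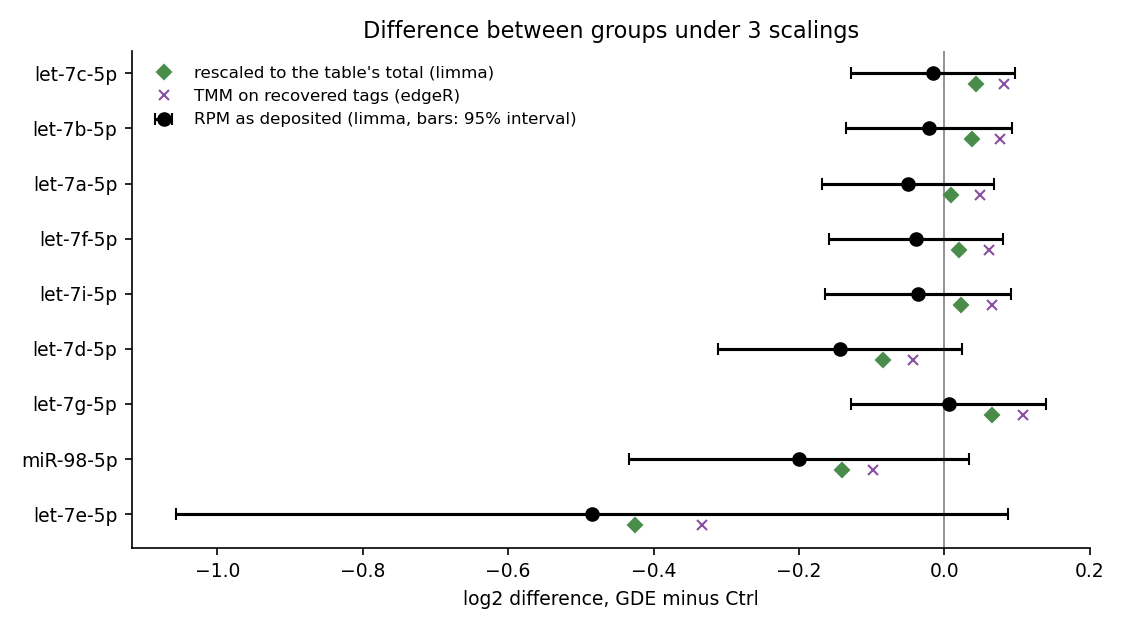
Log2 difference between the groups, GDE minus Ctrl (horizontal axis), for each member: black points and bars are limma on the deposited RPM with 95% intervals, green diamonds the same after rescaling to the table's total, purple crosses edgeR with TMM scaling. Every interval includes 0, and the points of let-7e, miR-98 and let-7d stay left of 0 under all 3 scalings while those of the 5 other members left of 0 in black move to its right.

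let-7e in GDE replicate 3 was the value of the family farthest from the rest. At 1233 RPM (14954 tags) it was 0.492 times the median of the 5 other libraries, while the other members in that library lay between 0.856 (let-7d) and 0.986 (let-7g) times theirs. Among the 52 miRNAs of at least 1000 RPM, the median of this ratio in GDE replicate 3 was 0.962, and only miR-532-5p, at 0.00416, was lower than let-7e. Next came miR-24-3p (0.518) and miR-30d-5p (0.591). The passenger strand of the same hairpin, let-7e-3p, was not low in this library: it stood at 83.8, 80.8 and 105.5 RPM in GDE and 113.3, 85.4 and 76.5 RPM in Ctrl. The ratio of the let-7e guide over its passenger was 11.7 in GDE replicate 3 and 26.5 to 33.7 in the 5 other libraries. miR-125a-5p and miR-99b-5p, which are made from the same cluster as let-7e, were at 0.849 and 0.999 times the median of the other libraries in GDE replicate 3. So the low value was seen in the let-7e guide and was much smaller or absent in the other strands of its hairpin and cluster.

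let-7k, outside the family, was also lowest in GDE replicate 3. It lies at chr5:147283257-147283275 on the minus strand (GRCm38), and its first 16 bases are those of let-7e, including U9G, which no other member has. Over its 19 bases it differed from let-7e at 2 positions and from let-7b at 1. let-7k was rare, at 7.43, 6.60 and 3.88 RPM in GDE and 8.39, 8.96 and 10.5 RPM in Ctrl, or 47 to 123 tags per library. All GDE values lay below all Ctrl values, where 14.6% of all tested rows had no overlap between the groups in either direction. GDE replicate 3 stood at 0.462 times the median of the other libraries. The log2 difference was -0.59 (SE 0.25) and did not pass over all rows (limma, adjusted p = 0.561, with 0.450 to 0.818 over the alternatives; exact permutation p = 0.1), and it was -0.35 without GDE replicate 3. At these levels let-7k was far rarer than let-7e, and how reads shared by let-7k, let-7e and let-7b were assigned is not given in the sources used here.

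**Figure D4:**
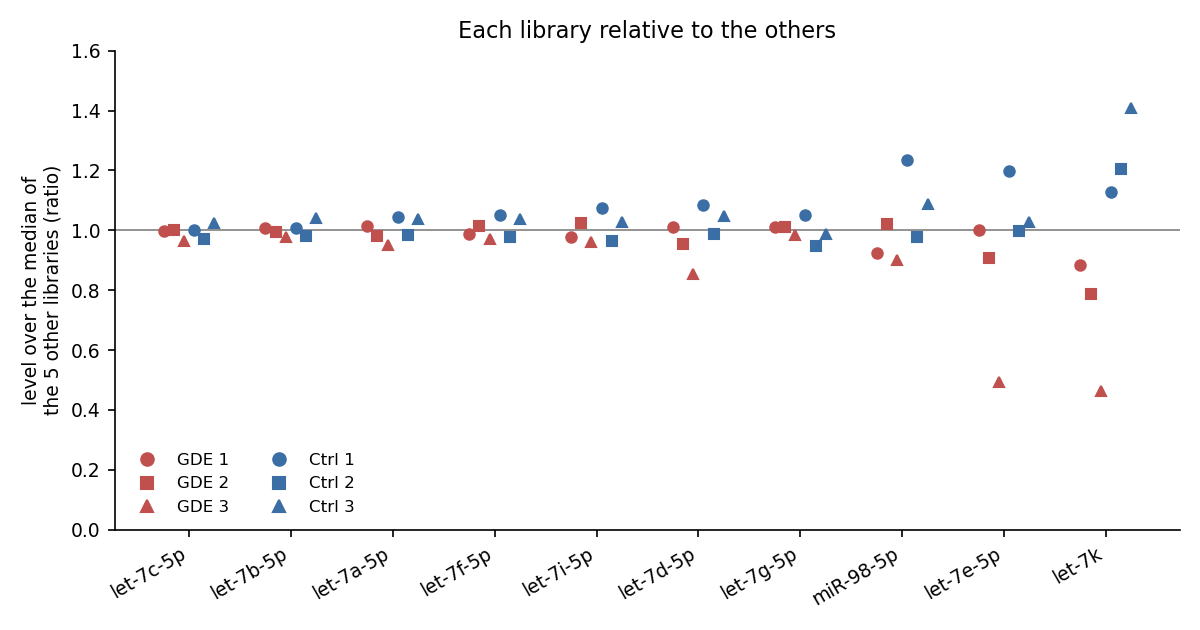
Level in each library divided by the median of the 5 other libraries (vertical axis, ratio, from 0) for the 9 members and let-7k, with GDE in red, Ctrl in blue and marker shape for the replicate. let-7e and let-7k of GDE replicate 3 stand at 0.492 and 0.462, and the 7 most abundant members stay between 0.856 and 1.09 in every library.

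The spread between replicates was narrow for the abundant members. The within-group SD of log2(RPM + 1) was 0.03 for let-7b, let-7c, let-7a and let-7f, 0.05 for let-7i and let-7g, 0.09 for let-7d, 0.12 for miR-98 and 0.40 for let-7e. Over the 11 other miRNAs above 5000 RPM the median of this SD was 0.06, and over the 32 others between 1000 and 5000 RPM it was 0.19. The low spread of the 7 abundant members was thus shared by other miRNAs at their level. In recovered tags let-7c ranged from 105889 to 108958 and let-7b from 98155 to 101685 over the 6 libraries, with a variance over mean of 15.3 and 20.0. This ratio pools both groups. In Ctrl replicates 1, 2 and 3 let-7c stood at 9055, 8796 and 9270 RPM, where 1 tag was worth 0.0831, 0.0807 and 0.0851 RPM. Its tags were thus nearly constant over the Ctrl libraries, and its RPM there followed the worth of 1 tag. The same ratio was 476 for let-7d, 384 for miR-98 and 1804 for let-7e, where counting error alone gives 1 on average. For the most abundant row of the table, miR-9b-3p, it was 0.319, with 111884 to 112346 tags in all 6 libraries, below that average. Whether the counting of tags levelled off for the highest rows was not tested, so close levels of the abundant let-7 members are no evidence of equal levels in the cells. The narrow spread, the small differences between groups and the shares of these members carry the same limit.

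**Figure D5:**
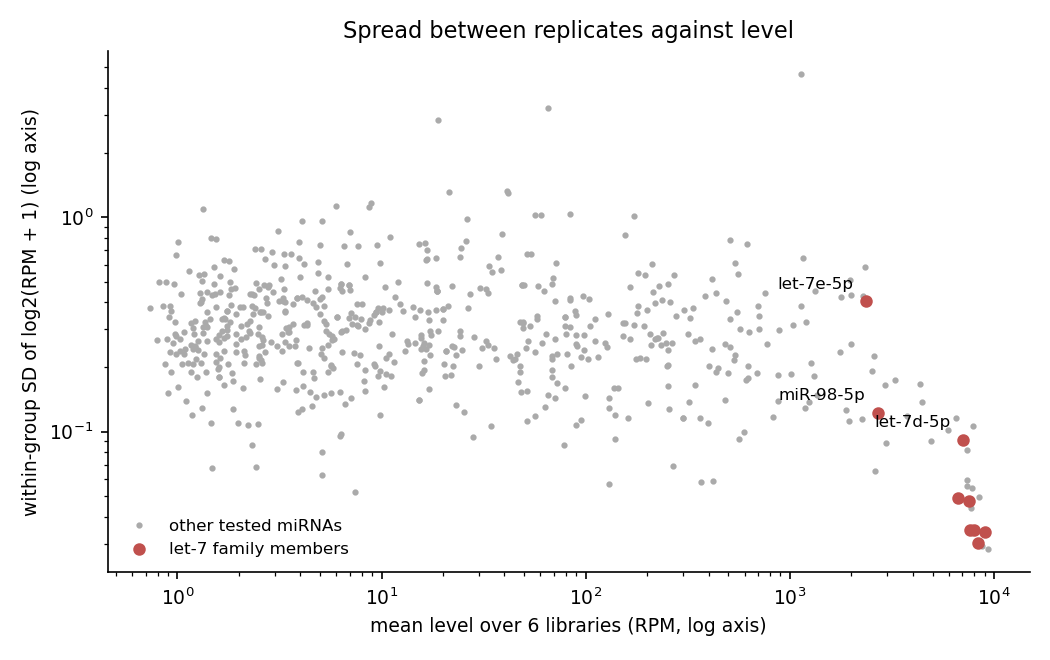
Within-group SD of log2(RPM + 1) (vertical, log axis) against mean RPM over the 6 libraries (horizontal, log axis) for all tested miRNAs (grey) and the 9 members (red). Above 5000 RPM the SD falls to between 0.03 and 0.12 for members and other miRNAs alike, and let-7e, at 0.40, lies well above the other members.

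The profile of the family sum over the 6 libraries was compared with those of 630 other tested miRNAs of distinct values, as the root mean square distance of log2 values centred on their own mean. The nearest were miR-34a-5p (0.04), miR-181a-5p (0.04) and miR-99a-5p (0.04), all between 7388 and 8746 RPM. Within the family the distance was 0.02 for let-7a, 0.10 for miR-98 and 0.36 for let-7e. Closeness here mostly means that both profiles are flat.

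The other strands and partners of let-7 were read from the same fit. Passenger strands, the 3p arms that are mostly discarded, had 9 tested of 12, with 0 called, 4 log2 differences above 0 and 5 below (7 and 2 in edgeR), and a median of -0.004 against -0.07 over all tested rows. The most abundant was let-7d-3p, at 2474 ± 86.0 RPM in GDE and 2672 ± 604 RPM in Ctrl, so that the let-7d guide was only 2.30 to 3.39 times its passenger. let-7a-1-3p and let-7c-2-3p, which have the same sequence, carried identical values in every library, with means of 312.9 ± 32.8 RPM in GDE and 286.0 ± 14.1 RPM in Ctrl. Of the 5 miRNAs made together with let-7 genes, 0 were called and all 5 had a log2 difference below 0 on the deposited scale, with a median of -0.04, but in edgeR 4 of the 5 lay above 0. miR-99a-5p, the most abundant of them, averaged 8719 ± 161 RPM in GDE against 8772 ± 191 RPM in Ctrl, and miR-125b-5p, whose family is known to repress Lin28, was at 1829 ± 715 and 2137 ± 424 RPM. Of the 8 miRNAs reported to repress Lin28, 0 were called, 2 lay above and 6 below 0, with a median of -0.04, while 5 lay above and 3 below in edgeR, and 6 above and 2 below without GDE replicate 3. In this list miR-30b-5p averaged 2212 ± 135 RPM in GDE against 2291 ± 222 RPM in Ctrl, and miR-30e-5p was at 258 ± 59.0 and 196 ± 25.4 RPM, with overlapping groups in both.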

How the data were processed

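Small RNA libraries of 3 GDE and 3 Ctrl samples were read from 1 table of mature miRNAs. Per the labels' protocols, the RNA came from a TRIzol extraction and the libraries from the MGIEasy Small RNA kit. Bowtie2 and the mm10 build stand in the submitters' processing notes, with no version or role. Per the file headers the columns hold "Expression"; the unit of the deposited values, RPM, was inferred from the numbers, whose low values are whole multiples of 1 step per library. Divided by this step, 100% of the nonzero values gave whole tags within 0.1 tags. The deposited RPM sum to 241370 to 277888 per library. The members and lists were chosen with earlier results of these data known.

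Groups were compared with limma 3.58.1 (R 4.3.3, trend) on log2(RPM + 1), two-sided, with Benjamini-Hochberg adjustment at 0.05 and a filter of 1 RPM in 3 or more libraries. The pseudocount understates changes of low rows. On the recovered tags edgeR 4.0.16 called 2 of 649 rows, DESeq2 1.42.0 called 5 and limma-voom 1. Single values and shares had exact permutation tests in scipy 1.17.1. The fits were tested on simulated data, whose changes were larger than those seen in the members. That test does not tell whether differences as small as those of the members could be found. Named miRNAs were all 9 members, rows with the let-7 seed, the 3 nearest profiles and up to 5 per list. No 2 replicates agreed within sampling noise (chi-square over degrees of freedom from 50.1 to 185.8).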

Additional observations from a re-analysis of the deposited data

How the results depend on the processing

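Alternatives covered the pseudocount (0.1 and 10), the filter (none, or at least 10 RPM), rescaling to the table, quantile normalization, edgeR, DESeq2, limma-voom, a block on the replicate number and the removal of each library. The number of members called was 0 in all 16. Of 144 log2 differences, 23 changed sign, none of them past the threshold. Those under the other filters and the replicate block could not change. With the table rescaled, let-7c was at 0.0440, let-7b 0.0381, let-7a 0.00915, let-7f 0.0206 and let-7i 0.0232. In edgeR they were at 0.0827, 0.0766, 0.0491, 0.0613 and 0.0649, in DESeq2 at 0.0768, 0.0706, 0.0430, 0.0554 and 0.0591, and in limma-voom at 0.0887, 0.0848, 0.0554, 0.0663 and 0.0683. Leaving out 1 library gave let-7c between -0.0351 and 0.00273, above 0 without GDE replicate 3 (0.00161) or Ctrl replicate 3 (0.00273), and let-7g between -0.0272 and 0.0409, below 0 without Ctrl replicate 2. The median of all tested rows moved from -0.07 to 0.03 in limma-voom. The ratio of the family sums was 0.956, between 0.938 and 0.976 without 1 library, and 0.997 on the rescaled table. All 71 alternatives of the shares kept their direction, though those with the replicate block could not change it and the removals of a library reuse the same libraries. Replicate numbers did not pair the libraries, with correlations of -0.03, -0.12 and -0.03 between deviations of same-numbered libraries, and the replicate block left 0 members called and the lowest adjusted p among them at 0.573 (limma). The members held at least 14954 tags in each library, and what limited these comparisons was not tested.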
